A study of Mus musculus with 4 samples.

Results

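Pax7 peaks were examined at 8 genes that encode transcription factors of the neural crest: Msx1, Msx2, Zic1, Tfap2a, Tfap2b, Ets1, Foxd3 and Sox10. A peak was counted for a gene when its summit, the base of highest signal, was located from 100 kb before the start to 100 kb after the end of the gene. By this rule 17 of the 20579 Pax7 peaks belonged to the set, and they fell at 6 of the 8 genes. Foxd3 and Zic1 had none. The rule used position alone, so that the height of the peaks and their sequence were free to vary. Their place in the annotation was only partly free, because every summit had to lie within 100 kb of a gene.

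The cells were iPax7 muscle progenitors, obtained from mouse embryonic stem cells in which a transgene expresses Pax7 when doxycycline (Dox) is given. They were differentiated in serum and received Dox at 1 µg/ml from day 3 to day 9, which is 6 days of Pax7 induction. Cells that carried PDGFRα on their surface and lacked FLK1, a phenotype used to obtain paraxial mesoderm, were sorted on day 5 and grown further with bFGF. Chromatin immunoprecipitation with sequencing (ChIP-seq) was performed for Pax7 in 2 libraries, with 2 input libraries as background. Every library came from Dox-treated cells, and the factor was supplied by the transgene, which limits the cells as a model of Pax7 at its own level. The paper describes expression from this single-copy cassette as quasi-physiological, and the level was not measured here. The sort relied on these markers alone, and whether it left neural crest cells among the sorted cells was not tested. RNA of the 8 genes was not analysed here. The authors merged both ChIP libraries before peaks were called, so each peak has 1 value, without a spread between replicates, and the differences between genes described here have no replicate check. The peak list holds no read counts, and the depth behind a single peak is therefore unknown.

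The neural crest is a population of cells that arises at the border of the neural plate, leaves the neural tube and gives rise to peripheral neurons, glia, melanocytes and much of the facial skeleton. Pax7 and its paralog Pax3, which bind DNA with a paired domain and a homeodomain, are expressed at this border and in the dorsal neural tube, and both also act in somites and in muscle progenitors. The 8 genes follow a known order of action. Msx1 and Msx2 encode homeodomain factors downstream of BMP signalling, Zic1 encodes a zinc-finger factor and Tfap2a and Tfap2b encode AP-2 factors, and all of these except Tfap2b are usually counted among the neural plate border genes. Ets1, an ETS-domain factor, Foxd3, a winged-helix factor, and Sox10, an HMG-box factor kept on in glia and melanocytes, are counted among the neural crest specifiers.

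The summit sequences that carry the description below are given as 101 bases of the plus strand centred on the summit, read from the NCBIM37 (mm9) genome. They comprise the peak of highest fold enrichment at each bound gene and every peak with a paired-box core. Capitals mark that core, GTCACG, which is part of the site read by the paired domain, and the pentamer ATTAG, which holds a homeodomain core, each on either strand, and a sequence without capitals holds neither.
Msx1, 50.6 kb upstream, chr5:38266420-38266520: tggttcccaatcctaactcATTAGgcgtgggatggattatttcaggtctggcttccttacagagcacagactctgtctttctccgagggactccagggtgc
Msx2, 17.5 kb downstream, chr13:53550872-53550972: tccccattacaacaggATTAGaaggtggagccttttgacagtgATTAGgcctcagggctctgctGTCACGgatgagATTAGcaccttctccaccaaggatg
Tfap2a, 3.06 kb downstream, chr13:40826082-40826182: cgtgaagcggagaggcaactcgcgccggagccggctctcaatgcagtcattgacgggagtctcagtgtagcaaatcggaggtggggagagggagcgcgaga
Tfap2b, 99.1 kb upstream, chr1:19099880-19099980: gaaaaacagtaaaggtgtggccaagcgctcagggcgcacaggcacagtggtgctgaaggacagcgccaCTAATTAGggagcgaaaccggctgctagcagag
Tfap2b, 33.2 kb downstream, chr1:19232192-19232292: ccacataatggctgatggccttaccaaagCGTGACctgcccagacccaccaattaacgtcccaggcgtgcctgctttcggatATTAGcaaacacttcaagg
Tfap2b, 42.4 kb downstream, chr1:19241310-19241410: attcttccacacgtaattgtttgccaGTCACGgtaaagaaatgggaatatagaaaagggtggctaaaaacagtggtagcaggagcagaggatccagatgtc
Ets1, 59.5 kb downstream, chr9:32503283-32503383: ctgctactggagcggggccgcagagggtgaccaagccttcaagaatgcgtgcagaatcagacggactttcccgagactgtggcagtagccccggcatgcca
Sox10, 12.6 kb upstream, chr15:79007518-79007618: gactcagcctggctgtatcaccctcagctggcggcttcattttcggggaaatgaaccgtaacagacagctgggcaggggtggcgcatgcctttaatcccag
Sox10, 60.4 kb upstream, chr15:79055276-79055376: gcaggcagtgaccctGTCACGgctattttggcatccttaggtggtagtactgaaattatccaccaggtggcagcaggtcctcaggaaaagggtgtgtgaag
Distances are from the 5′ end of the gene to the summit, upstream or downstream with respect to its transcription.

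Having 1 or more Pax7 peaks in such a window was common. Of 22350 protein-coding genes, 75.2% did, against 6 of the 8 genes here, and the median protein-coding gene had 2 peaks (quartiles 1 and 4). The 8 windows covered 1.80 Mb and held 0.945 peaks per 100 kb, where the sequenced genome as a whole, including sequence far from genes, held 0.805, a ratio of 1.17. Taken gene by gene, the median density was 1.14 at the 8 genes and 0.916 over all protein-coding genes. In number of peaks the 8 genes as a group were therefore close to the genome, and the differences lay between the genes: 5 peaks at Ets1, 3 each at Sox10, Tfap2a and Tfap2b, 2 at Msx1, 1 at Msx2 and 0 at Foxd3 and Zic1. Of protein-coding genes, 80.6% had fewer peaks than Ets1, while 24.8% had 0 like Foxd3 and Zic1.

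**Figure D1:**
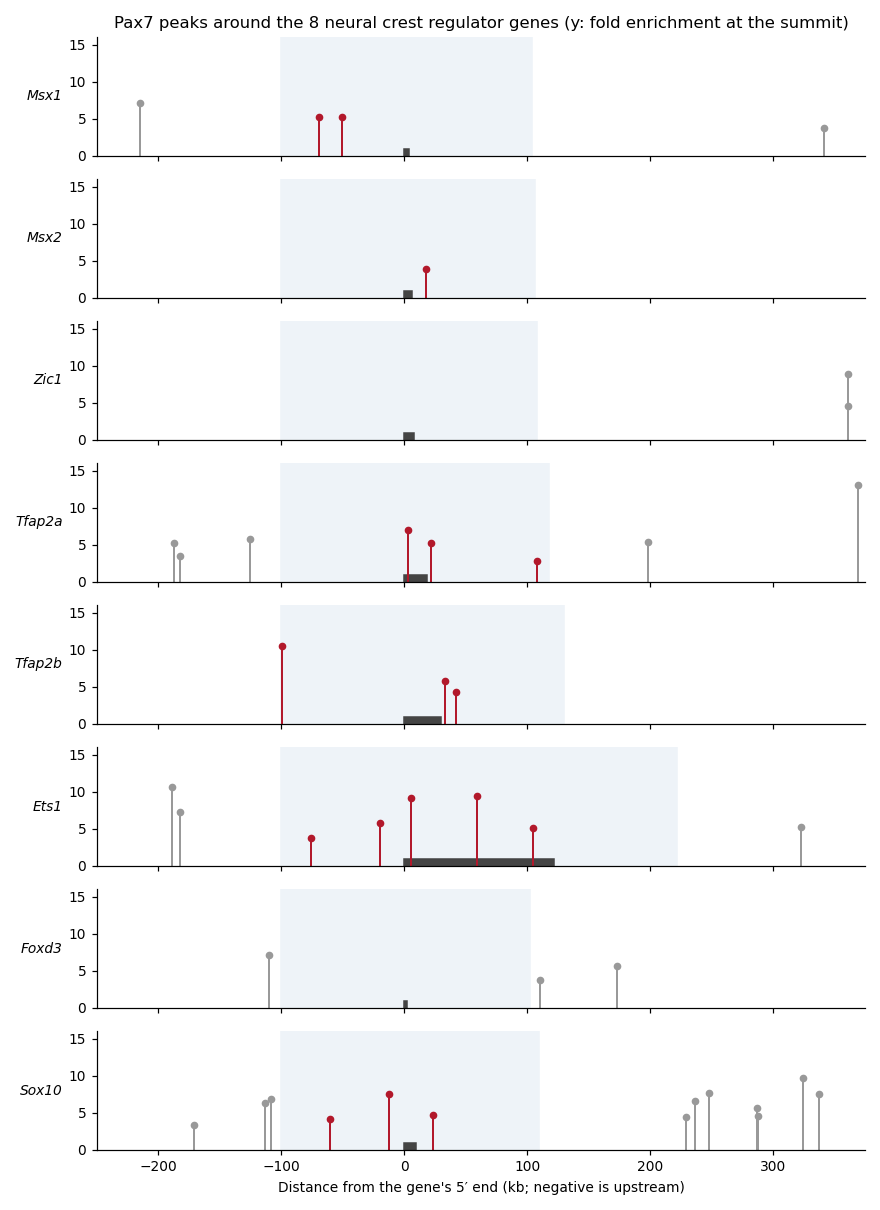
Pax7 peaks around each of the 8 genes, with the distance of the summit from the gene's 5′ end in kb on the x axis (negative is upstream) and the fold enrichment over input on the y axis. Red stems are the 17 peaks inside the window (shaded, 100 kb on each side of the gene), grey stems are peaks outside it and the dark bar is the gene. The Foxd3 and Zic1 windows are empty, with peaks 110 kb from Foxd3 on either side, and Ets1 has 3 of its 5 peaks inside the gene.

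**Figure D2:**
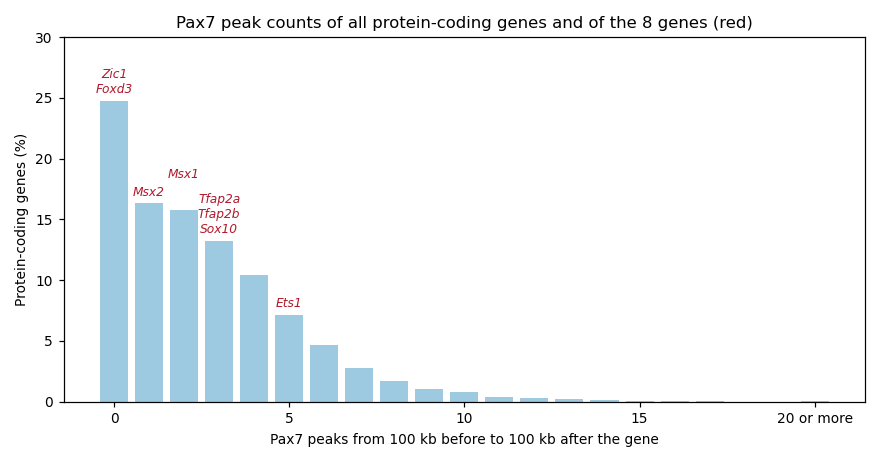
Share of the 22350 protein-coding genes (y axis, %) with each number of Pax7 peaks within 100 kb (x axis), with the 8 genes named in red above their bar. Foxd3 and Zic1 are in the bar of genes without a peak, which holds 24.8% of genes, and Ets1 stands at 5 peaks.

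Peak height was expressed as fold enrichment of the merged ChIP over the merged input at the summit, with the −log10 of the q-value of the peak. The 17 peaks had fold enrichments between 2.75 and 10.5, with a median of 5.23, and the median of all peaks was 5.22. Of the 17 peaks 11 reached 5-fold (64.7%, 95% Wilson interval 41.3 to 82.7, which covers counting error only), against 54.9% of all peaks. Only the strongest peak at Tfap2b exceeded 10-fold, 1 of 17 or 5.88%, against 6.99% of all peaks. The median −log10 q was 12.3 in the set and 11.6 over all peaks, and the median width was 247 bp against 252 bp. By these medians the peaks at the 8 genes were of the usual height and width for a Pax7 peak.

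**Figure D3:**
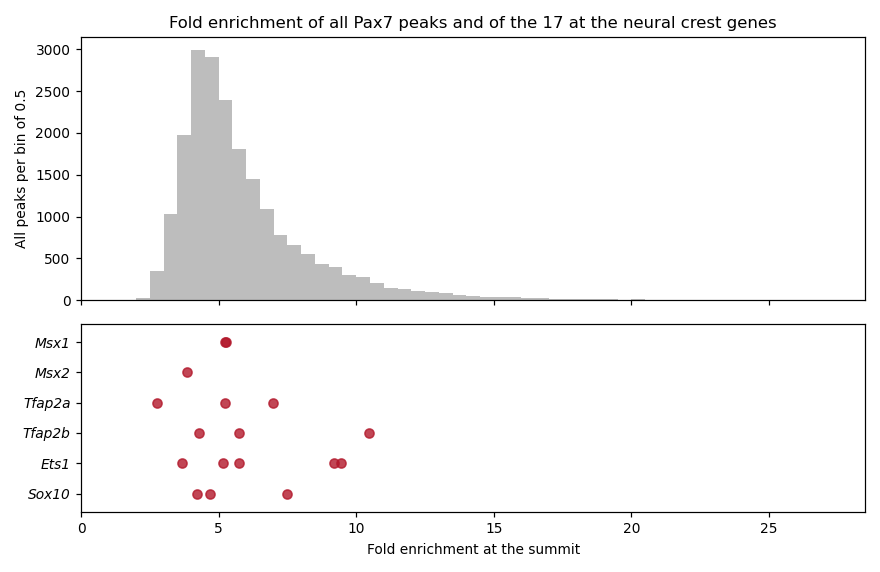
Upper panel, number of all Pax7 peaks (y axis) by fold enrichment over input at the summit (x axis). Lower panel, the fold enrichment of each of the 17 peaks by gene, 1 point a peak. The values run from 2.75 at Tfap2a to 10.5 at Tfap2b, around the median of all peaks of 5.22, and Ets1 holds peaks at 9.18 and 9.43.

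Among the border genes, Msx1 (ENSMUSG00000048450.9, chr5:38211724-38215822, minus strand) had 2 peaks, both upstream and between genes. The peak at chr5:38266318-38266607 was located 50.6 kb upstream and had a fold enrichment of 5.28 (−log10 q 18.6). The peak at chr5:38285013-38285198 was located 69.3 kb upstream and had 5.23 (−log10 q 9.89). Both were near the median height of all peaks, and no peak was closer than 50.6 kb to the start of Msx1, although 55.6% of protein-coding genes had a nearer one. The nearer peak contained ATTAG, and the farther held CCGGAA, the ETS motif, and a pair of E-boxes (CANNTG), the motif read by MyoD and other basic helix-loop-helix factors.

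Msx2 (ENSMUSG00000021469.7, chr13:53562250-53568443, minus strand), the paralog of Msx1, had 1 peak, at chr13:53550816-53550989. It was located 17.5 kb downstream of the 5′ end and 11.3 kb past the end of the gene, with a fold enrichment of 3.84 (−log10 q 5.52), and 13.7% of all peaks were lower. The nearest other Pax7 peak was 360 kb away. The core GTCACG lay 16.5 bp from this low summit, together with 3 copies of ATTAG, the most at any of the 17 peaks.

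Zic1 (ENSMUSG00000032368.8, chr9:91252896-91260648, minus strand) had no peak within 250 kb. The nearest one was 361 kb downstream, at chr9:90899660-90899907, with a fold enrichment of 4.54 (−log10 q 6.96), and 90.1% of protein-coding genes had a nearer peak. Zic4, which neighbours Zic1 head to head, shared this gap. The other members of the family did not differ in this respect. Of the 5 Zic genes, on 3 chromosomes, none had a peak in its window, and 24.8% of all protein-coding genes had none either. The distance from a Zic gene to the nearest peak was between 273 kb and 1156 kb. Neighbours such as Zic1 and Zic4 share a gap, so the 5 genes are not separate cases.

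Tfap2a (ENSMUSG00000021359.8, chr13:40811044-40829192, minus strand, named Tcfap2a in the annotation) had 3 peaks whose height fell with distance. The nearest, at chr13:40825965-40826258, was in an intron of the gene 3.06 kb downstream of its 5′ end and 345 bp from a further Tfap2a start site, with a fold enrichment of 6.98 (−log10 q 18.3). It also lay within the noncoding gene Gm16989 on the opposite strand. Its summit sequence was rich in GC (62.4%), with 10 CpG and without GTCACG or ATTAG. The peak 21.4 kb downstream, at chr13:40807680-40807897 and 3.25 kb past the end of the gene, had 5.23 (−log10 q 10.6) and contained ATTAG and an E-box. The third, at chr13:40720718-40720891, was 90.2 kb past the end of the gene, with 2.75 (−log10 q 2.18), close to the threshold of the list, and only 0.578% of all peaks were lower. The start site nearest to both of these was that of Gm9979, not of Tfap2a.

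Tfap2b (ENSMUSG00000025927.6, chr1:19198995-19228815, plus strand, named Tcfap2b in the annotation) had the highest peak of the set and a group of peaks that stood far from any other. The highest, at chr1:19099793-19100084, had a fold enrichment of 10.5 (−log10 q 37.1), and 94.2% of all peaks were lower. It lay 99.1 kb upstream, 0.935 kb inside the window edge, in an intron of Tfap2d, a further AP-2 gene, 2.67 kb from one of its annotated start sites and 6.83 kb from its 5′ end, so a slightly narrower window would lose it. Its summit held a pair of overlapping ATTAG pentamers in opposite orientation. The other peaks were past the end of Tfap2b and between genes, at chr1:19232116-19232379 (33.2 kb downstream, 5.76-fold, −log10 q 12.3) and at chr1:19241283-19241554 (42.4 kb downstream, 4.29-fold, −log10 q 6.74), and each held the core GTCACG, 18.5 and 21.5 bp from its summit. Beyond the window, the next peaks were 2085 kb upstream and 742 kb downstream.

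Ets1 (ENSMUSG00000032035.7, chr9:32443806-32565405, plus strand), the first of the specifiers, had the most peaks, 5, and the highest number per length, 1.55 per 100 kb. It is also the longest of the 8 genes, at 121.6 kb. Of its peaks 3 were in its introns. The peak at chr9:32503204-32503456, 59.5 kb downstream, had a fold enrichment of 9.43 (−log10 q 33.8) and lay 294 bp from a further Ets1 start site. The peak at chr9:32449286-32449590, 5.65 kb downstream, had 9.18 and the highest −log10 q of the set, 37.7. These exceeded 91.2% and 90.3% of all peaks in fold enrichment. The third, at chr9:32548566-32549112, 105 kb downstream, had 5.16 (−log10 q 14.5) and was the widest of the set at 547 bp. The upstream peaks were lower. At chr9:32423757-32423970, 19.9 kb upstream, the fold enrichment was 5.76 (−log10 q 12.3), and at chr9:32367555-32367728, 76.2 kb upstream and 18.7 kb from the start of Fli1, a related ETS gene, it was 3.68 (−log10 q 4.90). ATTAG was found at the peaks 19.9 kb upstream and 5.65 kb downstream, in both cases as part of CAATTAG, so that it overlapped the MSX motif CAATTA. No Ets1 peak contained the core GTCACG.

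Foxd3 (ENSMUSG00000067261.3, chr4:99322990-99325362, plus strand) had no peak in its window, but peaks lay just outside on either side. The upstream one, at chr4:99212589-99212854, was 110 kb from the 5′ end and 10.3 kb outside the window, with a fold enrichment of 7.15 (−log10 q 19.2), and Foxd3 was the protein-coding gene with the nearest start site. The downstream one, at chr4:99433433-99433739, was 8.21 kb outside, with 3.74 (−log10 q 8.52). The count of 0 at Foxd3 thus rested on the choice of window, and with 250 kb on each side it was 3, whereas for Zic1 it was still 0. Of the 3 other FOXD genes, each had 2 or more peaks, with 8 at Foxd4.

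Sox10 (ENSMUSG00000033006.8, chr15:78985343-78994920, minus strand) had 3 peaks, in a window with 9 protein-coding genes, the most crowded of the set. The nearest and highest, at chr15:79007440-79007681, was 12.6 kb upstream in an intron of the noncoding gene Gm10863, with a fold enrichment of 7.50 (−log10 q 21.0), and 81.3% of all peaks were lower. It held a pair of E-boxes and neither GTCACG nor ATTAG. The second, at chr15:79055186-79055432, was 60.4 kb upstream, in another intron of Gm10863 and 4.28 kb from the start of Pick1, with 4.22 (−log10 q 11.6). Here the core GTCACG lay 32.5 bp from the summit. On the other side of the summit were an E-box at 15.5 bp and the ZIC motif CCTGCTG at 23 bp. These letters nearly adjoin in the same short stretch, and whether either is a site of its factor was not tested. The third, at chr15:78971541-78971774, 23.3 kb downstream, had 4.68 (−log10 q 11.6) and its summit lay 15 bp from the start site of 1700088E04Rik. It contained a pair of ATTAG pentamers.

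Around the genes, 7 of the 17 peaks were upstream and 10 downstream of the 5′ end, and 4 were inside the gene. Peaks within 1 kb of any annotated start site numbered 3 (17.6%, Wilson interval 6.19 to 41.0), against 16.3% of all peaks, and they were those of Sox10 at 23.3 kb, Tfap2a at 3.06 kb and Ets1 at 59.5 kb. Of the peaks farther than 1 kb from a start site, introns held 5 (29.4% of the 17, against 42.1% of all peaks) and the space between genes 9 (52.9%, against 39.0%). The classes exclude one another in this order, so the intronic peaks of Tfap2a at 3.06 kb and Ets1 at 59.5 kb were counted with the start sites. The interval of each of these shares, with 17 peaks, includes the share in all peaks. For 11 peaks the nearest protein-coding start site was that of the gene itself, and for the other 6 it belonged to another gene. A peak position does not say which gene it acts on.

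The core GTCACG was present within 50 bp of 4 of the 17 summits (23.5%, Wilson interval 9.56 to 47.3), against 11.1% of all summits, and within 0 of 34 windows of the same length 500 bp to either side, which allows a share of up to 10.2% (Wilson), against 1.28% of such windows over all peaks. The 4 peaks were at Msx2, Sox10 (60.4 kb upstream) and Tfap2b (33.2 and 42.4 kb downstream). Their fold enrichments were 3.84, 4.22, 4.29 and 5.76, with a median of 4.26, and the median of the other 13 was 5.28. Over all peaks the order was the other way, 5.58 with the core and 5.13 without, but 4 peaks are too few to establish an order. ATTAG, chosen after the summit sequences were seen, was present at 8 of the 17 summits (47.1%, Wilson interval 26.2 to 69.0), against 28.9% of all summits, and in 2 of 34 neighbouring windows (5.88%), against 13.9%. GTCAC, the core without its last base and chosen at the same time, was present at 6 of 17 (35.3%, Wilson interval 17.3 to 58.7), close to the 31.9% of all summits, and in 17.6% of the neighbouring windows, against 15.3%. At 10 of 17 summits the core or ATTAG was found (58.8%, against 37.9% of all peaks), and both together at Msx2 and at Tfap2b 33.2 kb downstream. The longer composite site, a paired-box part next to a homeodomain part, and the palindromic homeodomain dimer were found at none of the 17 summits, against 2.10% and 0.831% of all summits.

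**Figure D4:**
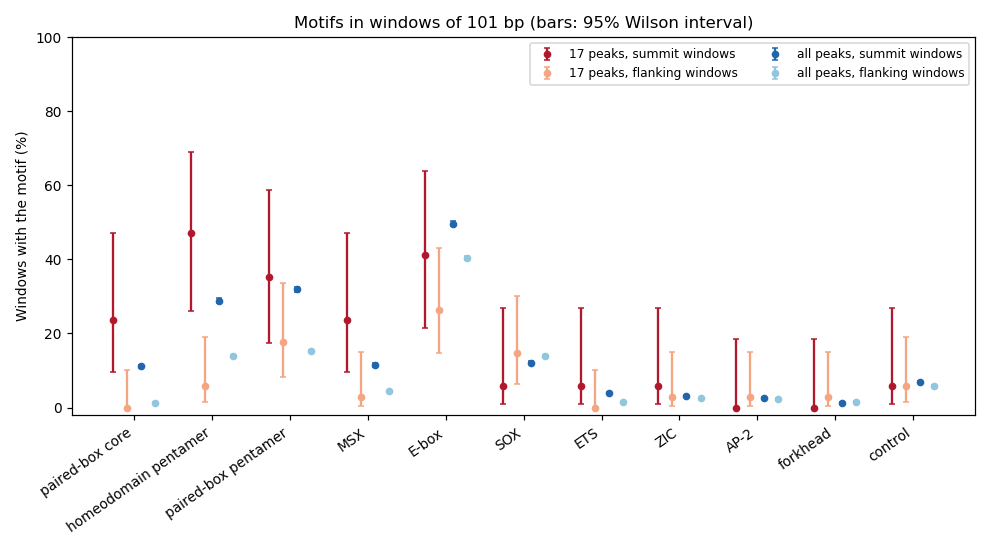
Share of 101-bp windows with each motif (y axis, %; motifs along the x axis), at the summits and in the flanks, for the 17 peaks and for all 20579 peaks, with 95% Wilson intervals for counting error as bars. The core GTCACG is at 23.5% of the 17 summits and 11.1% of all, and the intervals of the set are wide.

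Motifs of the factors that the 8 genes encode were also searched at their own peaks, with the letters read on both strands. The MSX motif CAATTA was found at 4 of the 17 summits (23.5%, Wilson interval 9.56 to 47.3, against 11.5% of all), at Tfap2b and Ets1. At Ets1 both matches shared bases with ATTAG, so MSX and ATTAG cannot be told apart there. CAATTA and ATTAG have the letters ATTA in common, so the matches at Tfap2b are not specific to MSX either. In the windows beside the summits CAATTA was found in 2.94% for the 17 peaks and in 4.35% for all peaks. The ETS motif CCGGAA was found at 1 (Msx1, 69.3 kb upstream), against 4.04% of all, and the ZIC motif CCTGCTG at 1 (Sox10, 60.4 kb upstream), against 3.01%. The AP-2 motif GCCNNNGGC and the forkhead motif TGTTTAC were found at none, against 2.51% and 1.36% of all. None of these matches was at a gene of the motif's own family, but 17 summits say little on that, and all of these motifs except MSX are rare over all peaks. The SOX motif (ACAATG or ACAAAG) was found at 1 summit, at Ets1 19.9 kb upstream, against 12.1% of all. E-boxes were found at 7 of 17 summits (41.2%), against 49.7% of all summits. In the windows beside the summits they were found in 26.5% for the 17 peaks and in 40.3% for all peaks. GCACTG, searched as a control, was found at 1 of 17 (5.88%), against 6.86% of all. The absence of a motif says only that these letters were not in the window.

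Some genes related to the 8 had higher counts or higher peaks, although the window, and with it the count, grows with the length of the gene. Of 16 paralogs 11 had a peak, with a median of 2 peaks per gene, 37 distinct peaks and a median fold enrichment of 5.41, and 5 of these peaks were shared with the 8 genes because paralogs are neighbours. Foxd4 had 8 peaks (highest 15.5-fold), Erg had 6 and Foxd1 and Fli1 had 4 each, with a peak of 25.5-fold at Foxd1. Of 24 other neural crest genes 18 had a peak, with a median of 1.5 per gene, 53 peaks and a median fold enrichment of 5.93. Sox5 and Mitf, the latter the regulator of melanocytes, had 8 each, and Id3, an inhibitor of basic helix-loop-helix factors, had 6, of which the nearest was 0.131 kb from its start. Per 100 kb Id3 had 2.97, Mitf 1.93 and Sox5 only 0.694, below the 0.805 of the genome. Of 11 genes of somites and paraxial mesoderm, 10 had a peak, with a median of 1 per gene, 15 peaks and a median fold enrichment of 4.80. Msgn1 led with 3, and Tcf15, Meox1, Mesp2 and Uncx had 2 each. For the 8 genes the median was 2.5 peaks per gene. The share with a peak was near the 75.2% of all protein-coding genes for the 8 genes and for the paralogs and the other crest genes. Sox8 and Sox9 stand in both the list of paralogs and that of other crest genes, and no list was tested against another.

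**Figure D5:**
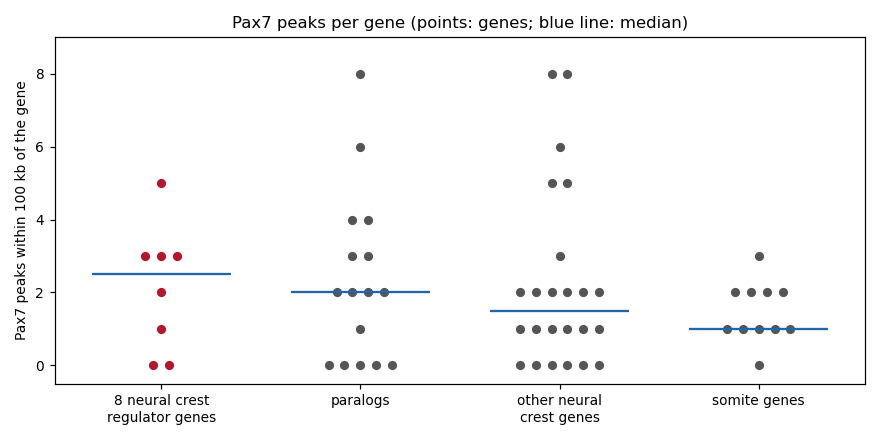
Number of Pax7 peaks within 100 kb of each gene (y axis), for the 8 genes and for 3 lists of related genes (16 paralogs, 24 other neural crest genes, 11 somite genes), each point 1 gene and the blue line the median. The medians are 2.5, 2, 1.5 and 1, and the ranges of the lists overlap.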

How the data were processed

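Pax7 ChIP-seq of iPax7 cells after 6 days of Dox (2 ChIP and 2 input libraries) was analysed from 1 deposited peak list. The authors aligned reads to mm9, removed duplicates, merged replicates and called narrow peaks against merged input with MACS2. The deposited values are a fold enrichment at the summit (a ratio of ChIP to input signal), a −log10 p-value and a −log10 q-value, a display score and the summit position. The fold enrichment, the q-value and the summit were used, and the score and p-value were not. The list holds no read counts, so depth per library is not shown by it. All libraries belong to 1 condition, no comparison between samples was possible, and values are pooled.

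Genes were taken from GENCODE vM1 (NCBIM37), with Tfap2a and Tfap2b found under older symbols (2 genes) through a RefSeq synonym table. Summits from 100 kb before to 100 kb after each gene were counted, and the same count was made for all protein-coding genes. Motif letters were read on either strand in the 50 bp around every summit on each side, and in windows centred 500 bp away, and the counting was tested on simulated data. Coordinates are 1-based. Shares have 95% Wilson intervals, and no chance test was run. Every peak at the 8 genes was named, and sequence is given for the highest peak of each gene and for peaks with a Pax motif. Of each comparison list the 3 genes with most peaks were to be named, with ties where they arose. The members, the lists and the motifs were chosen with earlier results of these data known. Alternatives were other windows, minimum fold enrichment or q, merging of near peaks, other rules of assignment and motif distance. Python 3.11.15, pandas 2.3.3, scipy 1.17.1 and pysam 0.24.0 were used.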

Additional observations from a re-analysis of the deposited data

How the results depend on the processing

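Of the 17 peaks, 11 remained with a fold enrichment of at least 5, 11 with a window of 50 kb and 11 when the nearest protein-coding start site had to be that of the gene, and a window of 250 kb gave 34. The density of 0.945 peaks per 100 kb became 0.611 with a fold enrichment of at least 5, where its ratio to the genome was 1.38, against 1.17 in the report, 1.37 with 50 kb and 1.01 with 250 kb. A minimum −log10 q of 5 left 15 peaks. The share with the paired-box core was 17.6% within 25 bp and 29.4% within 100 bp of the summit, against 7.24% and 14.2% of all peaks. The pentamers ATTAG and GTCAC, chosen after the data were seen, gave 47.1% and 35.3%. Under the main count and the alternatives of counting run, 73.6 to 90.3% of protein-coding genes were below Ets1. The share was 38.7 to 68.4% for Sox10, 44.0 to 65.8% for Tfap2a and 56.9 to 70.9% for Tfap2b. For Msx1 it was 41.1 to 63.5% and for Msx2 0 to 37.0%. The ranges of Sox10, Tfap2a, Tfap2b and Msx1 overlapped, and the order of Sox10 and Msx1 depended on the rule. For Foxd3 and Zic1 the value could only be 0, because these alternatives narrowed or reweighted the same empty windows. Ranks were not computed with 250 kb, where Foxd3 had 3 peaks and Zic1 still 0. No paired analysis was possible because the replicates were merged before peaks were called, and leaving out a replicate was impossible for the same reason. With 17 peaks in the set the intervals of all shares are wide.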

Other observations

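The peak list holds 2855 distinct pairs of fold enrichment and q-value among its 20579 peaks. The peaks of Tfap2b 33.2 kb downstream and of Ets1 19.9 kb upstream have the same pair, which 175 peaks share, so their heights cannot be ranked against each other.

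Snai1, a regulator of the departure of crest cells from the neural tube, had 3 Pax7 peaks, with a highest fold enrichment of 21.7 and the nearest summit 0.062 kb from its 5′ end, whereas Snai2, its paralog, had 0 within 100 kb and its nearest peak at 199 kb. Both were picked after their values were seen. Dlx5 and Dlx6, homeodomain genes of the craniofacial crest, also had 0, with nearest peaks at 497 and 478 kb.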
